A study of Mus musculus with 10 samples.

Results

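The caudal-eminence interneuron genes are 10 named genes out of 19938 genes that were read in whole hippocampi from Tg(Dyrk1a) males and wild-type littermates. They are Cnr1, Htr3a, Slc17a8, Cck, Vip, Reln, Ndnf, Krt73, Sncg and Adarb2. Each was read as the array row annotated with its symbol, and each of the 10 had 1 transcript cluster, the set of probes that the array summarises as 1 transcript. The genes were chosen by their role in these cells together with earlier results of these data, and the values that chose them were genotype differences, of Krt73, Slc17a8 and Reln at least. The differences of those 3 genes are given here as a description, with no test.

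The 5 Tg(Dyrk1a) mice bore Dyrk1a once more, on a bacterial artificial chromosome (BAC), and the 5 wild-type mice lacked the BAC. All 10 were males aged 16 weeks, and the right and left hippocampus of each mouse together gave 1 array. The labels place the line on a C57BL/6N background, whereas the methods of the study name C57BL/6J, and both genotypes share that background. All values are on a log2 scale after robust multi-array average (RMA) processing, so a step of 1 is a doubling of signal. Values of different genes come from different probes and are not set against each other, except as a rank of array signal among all genes.

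Cortical and hippocampal interneurons are inhibitory neurons that arise in the ganglionic eminences of the embryonic forebrain. The caudal eminence yields the basket cells that carry cholecystokinin and the cannabinoid receptor CB1, the cells that carry vasoactive intestinal peptide, and part of the neurogliaform cells. The medial eminence yields the parvalbumin and somatostatin cells. Basket cells with cholecystokinin release transmitter onto pyramidal cell bodies under the control of CB1, and the ionotropic serotonin receptor marks most cells of caudal origin. Several of the genes are used outside these cells too. Cck is also transcribed in pyramidal cells and Reln in Cajal-Retzius cells, the early-born cells along the hippocampal fissure. Interneurons are a small share of hippocampal cells, and in a whole hippocampus more cells of a type and more RNA per cell cannot be told apart.

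The promoter stretches of 4 of the genes are shown because these genes carry the genotype description (Krt73 and Slc17a8) or are the neuropeptide genes of the set (Vip and Cck). Each runs 5′ to 3′ on the strand of the gene and ends at the base before the annotated gene start, in RefSeq sequence of build GRCm38.p6. Capitals mark matches, on either strand, to a cyclic AMP response element half-site (TGACG or CGTCA), a homeodomain core (TAATTA) or a TATA box (TATAAA or TTTATA).
Krt73 chr15:101802361-101802610 (-): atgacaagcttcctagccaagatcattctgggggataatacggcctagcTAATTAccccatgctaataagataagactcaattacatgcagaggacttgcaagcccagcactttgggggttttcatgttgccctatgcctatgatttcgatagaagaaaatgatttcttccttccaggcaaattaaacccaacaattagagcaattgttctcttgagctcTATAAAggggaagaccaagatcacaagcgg
Slc17a8 chr10:89621250-89621499 (-): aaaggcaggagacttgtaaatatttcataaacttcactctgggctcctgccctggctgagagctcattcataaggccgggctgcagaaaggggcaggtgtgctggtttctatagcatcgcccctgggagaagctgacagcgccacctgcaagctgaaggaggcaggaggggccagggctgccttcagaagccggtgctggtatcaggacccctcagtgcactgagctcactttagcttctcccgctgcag
Vip chr10:5638968-5639192 (+): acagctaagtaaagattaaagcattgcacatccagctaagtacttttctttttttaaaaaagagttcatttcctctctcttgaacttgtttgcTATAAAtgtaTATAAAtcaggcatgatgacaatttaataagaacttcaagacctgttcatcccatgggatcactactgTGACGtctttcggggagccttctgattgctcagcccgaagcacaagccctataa
Cck chr9:121495695-121495944 (-): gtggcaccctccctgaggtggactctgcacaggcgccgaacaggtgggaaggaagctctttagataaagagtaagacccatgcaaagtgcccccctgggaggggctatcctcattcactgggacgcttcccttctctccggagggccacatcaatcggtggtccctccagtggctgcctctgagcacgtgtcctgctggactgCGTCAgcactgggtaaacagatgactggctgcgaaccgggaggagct
The Krt73 stretch held a TATAAA 30 bases before the gene start and a TAATTA 201 bases before it. The Vip stretch held a TGACG 54 bases before the start and a TATAAA at 132 and at 122 bases. The Cck stretch held a CGTCA at 47 bases, and the Slc17a8 stretch held none of these letters. No 2 matches overlapped.

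RefSeq promoter windows were matched for 8 of the 10 genes, all but Htr3a and Ndnf, and gave 11 windows because some genes have several starts. The windows were searched whole, including bases after the start that are not printed. The response element half-site was found for 3 of these genes (Sncg, Cck and Vip), and 20.8% of all 32851 promoter windows of the same length held it. The homeodomain core was found for 3 (Krt73, Slc17a8 in another of its windows, and Adarb2), against 5.29% of all windows. The TATA box was found for 2 (Krt73 and Vip), against 13.6% of all windows. The counts are of genes, some with several windows, while the percentages are of single windows, so the 2 are unlike measures. The motifs were chosen after the sequences had been seen, so these are matches of letters only.

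The arrays resembled each other closely, with pairwise Pearson correlations over all rows of 0.994 to 0.998 and array medians of 6.57 to 6.66. Dyrk1a, the kinase gene on the BAC, was 11.65 ± 0.02 in Tg(Dyrk1a) mice and 11.18 ± 0.06 in wild-type mice (SD, n = 5 each), 1.38-fold higher (limma adjusted p = 0.000138). Ttr encodes transthyretin, which choroid plexus cells secrete, and its values spanned 7.97 to 13.24. A score was taken for each marker list as the mean, over its genes, of the value minus the mean of that gene over the 10 arrays. The choroid plexus score exceeded 0.5 in Tg(Dyrk1a) replicate 2 (1.10), Tg(Dyrk1a) replicate 4 (0.76) and wild-type replicate 5 (1.04). Wild-type replicate 5 also had a thalamus and habenula score of 0.40. Results are therefore also given without these 3 choroid-high arrays. The deposited values carry no detection call, so whether a marker lay above background was not judged.

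The first comparison asked how each gene stood in Tg(Dyrk1a) against wild-type mice. The mean of all 10 genes was higher in Tg(Dyrk1a) mice, with a median log2 fold change of 0.13 (range 0.05 to 0.35), where the median of all genes was 0.002. Krt73 and Slc17a8 were higher in each Tg(Dyrk1a) mouse than in any wild-type mouse. Such a separation, in that direction, was seen for 0.534% of the 23410 annotated transcript clusters. The mean signals of Krt73 and Slc17a8 were the lowest of the set, at percentiles 50.5 and 40.9 of all genes. No member of the set passed limma (adjusted p under 0.05), which called 0.00854% of all clusters in either direction, and 5 of the 10 were at an unadjusted p under 0.05 and higher, where 2.99% of all clusters were. FCROS, the ranking of fold changes that the study used, placed 8 of the 10 in its upper tail, where it placed 2.72% of all clusters. Since the genotype difference of 3 of the genes was known when the set was proposed, nothing is read from these counts.

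**Figure D1:**
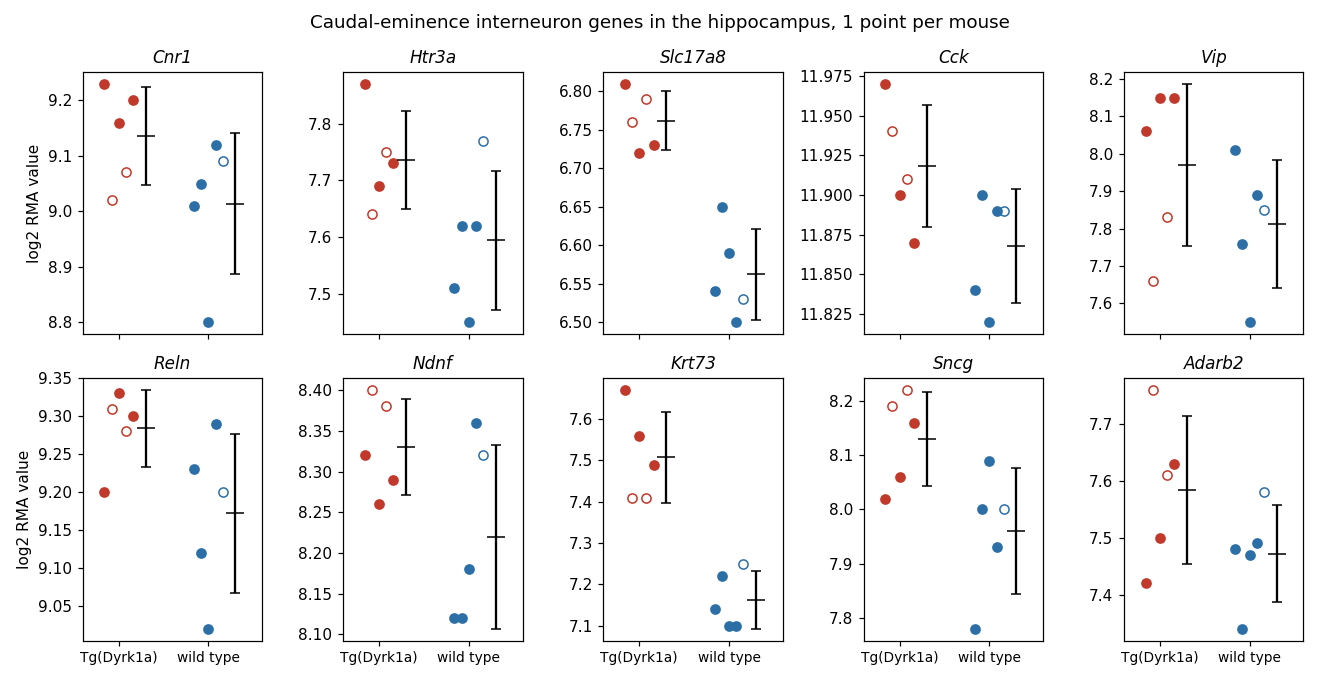
Log2 RMA value (vertical axis, a separate scale in each panel) of the 10 caudal-eminence interneuron genes, 1 point per mouse, with Tg(Dyrk1a) mice in red and wild-type mice in blue. Bars are the mean ± SD of 5 mice and open points are the 3 arrays whose choroid plexus score exceeded 0.5. The groups are separate for Slc17a8 and Krt73 and overlap for the other 8 genes.

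The receptors and the transporter come first. Cnr1 encodes the cannabinoid receptor CB1, which reduces transmitter release from axon terminals (chr4, 33923171 to 33948831). It read 9.23, 9.02, 9.16, 9.07 and 9.20 in Tg(Dyrk1a) replicates 1 to 5, against 9.01, 9.05, 8.80, 9.12 and 9.09 in wild-type replicates 1 to 5. Wild-type replicate 3 was the lowest array and Tg(Dyrk1a) replicates 2 and 4 lay within the wild-type range. The means were 9.14 ± 0.09 in Tg(Dyrk1a) mice and 9.01 ± 0.13 in wild-type mice (SD, n = 5 each), a log2 fold change of 0.12 ± 0.06 (SE; limma adjusted p = 0.947). It was 0.07 without wild-type replicate 3 and 0.20 without the choroid-high arrays.

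Htr3a encodes a subunit of the ionotropic serotonin receptor (chr9, 48899213 to 48911152). Its values were 7.87, 7.64, 7.69, 7.75 and 7.73 in Tg(Dyrk1a) replicates 1 to 5 and 7.51, 7.62, 7.45, 7.62 and 7.77 in wild-type replicates 1 to 5. Only wild-type replicate 5, an array high in choroid plexus genes, reached into the Tg(Dyrk1a) range. The log2 fold change was 0.14 ± 0.06 (limma adjusted p = 0.947), and 0.22 with marker scores of choroid plexus, of meninges and of thalamus as covariates.

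Slc17a8 encodes VGLUT3, a vesicular glutamate transporter that some basket cells with cholecystokinin carry beside their GABA (chr10, 89574020 to 89621249). Its values were 6.81, 6.76, 6.72, 6.79 and 6.73 in Tg(Dyrk1a) replicates 1 to 5, against 6.54, 6.65, 6.59, 6.50 and 6.53 in wild-type replicates 1 to 5. The lowest Tg(Dyrk1a) mouse was 0.08 above the highest wild-type mouse, so the groups did not overlap. The means were 6.76 ± 0.04 in Tg(Dyrk1a) mice and 6.56 ± 0.06 in wild-type mice (SD, n = 5 each), a log2 difference of 0.20 ± 0.03, or 1.15-fold. Of all genes, 77 had a log2 fold change at least as high, Slc17a8 included.

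The neuropeptide genes are Cck and Vip. Cck encodes cholecystokinin (chr9, 121489824 to 121495694) and read 11.97, 11.94, 11.90, 11.91 and 11.87 in Tg(Dyrk1a) replicates 1 to 5, against 11.84, 11.90, 11.82, 11.89 and 11.89 in wild-type replicates 1 to 5. It had the smallest log2 fold change of the set, 0.05 ± 0.03 (limma adjusted p = 0.947), or 0.03 with array weights, and the groups overlapped. Pyramidal cells also transcribe Cck, and their part in the signal was not measured.

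Vip encodes vasoactive intestinal peptide, which marks interneurons that mostly contact other interneurons (chr10, 5639193 to 5647617). It read 8.06, 7.66, 8.15, 7.83 and 8.15 in Tg(Dyrk1a) replicates 1 to 5, against 8.01, 7.76, 7.55, 7.89 and 7.85 in wild-type replicates 1 to 5. Vip had the widest spread of the set, with SDs of 0.22 in Tg(Dyrk1a) mice and 0.17 in wild-type mice, and a log2 fold change of 0.16 ± 0.10 (limma adjusted p = 0.947). The Tg(Dyrk1a) mice fell into those high in choroid plexus genes (7.66 and 7.83) and the other 3 (8.06 to 8.15). Wild-type replicate 5, also high in choroid plexus genes, did not share this, at 7.85 against a mean of 7.8 in the other wild-type mice. Its log2 fold change was 0.32 without the 3 arrays high in choroid plexus genes and 0.09 without wild-type replicate 3.

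The secreted proteins are Reln and Ndnf. Reln encodes reelin, a large glycoprotein of the extracellular matrix that is made by Cajal-Retzius cells and by many interneurons (chr5, 21884454 to 22344705). It read 9.20, 9.31, 9.33, 9.28 and 9.30 in Tg(Dyrk1a) replicates 1 to 5, against 9.23, 9.12, 9.02, 9.29 and 9.20 in wild-type replicates 1 to 5. The groups overlapped, with means of 9.28 ± 0.05 in Tg(Dyrk1a) mice and 9.17 ± 0.10 in wild-type mice (SD, n = 5 each). The log2 difference was 0.11 ± 0.05, and it was -0.02 in the fit with marker scores as covariates.

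Ndnf encodes a secreted factor that marks neurogliaform cells in mouse cortex (chr6, 65671611 to 65712323). It read 8.32, 8.40, 8.26, 8.38 and 8.29 in Tg(Dyrk1a) replicates 1 to 5, against 8.12, 8.12, 8.18, 8.36 and 8.32 in wild-type replicates 1 to 5. Wild-type replicates 4 and 5 lay within the Tg(Dyrk1a) range and the other 3 below it. The log2 fold change was 0.11 ± 0.05 (limma adjusted p = 0.947), and 0.05 with the same covariates.

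The intracellular proteins are Krt73, Sncg and Adarb2. Krt73 encodes a type II keratin of the inner root sheath of the hair follicle, whose transcript also marks a class of neurogliaform cells in mouse cortex (chr15, 101793304 to 101802360). It read 7.67, 7.41, 7.56, 7.41 and 7.49 in Tg(Dyrk1a) replicates 1 to 5, against 7.14, 7.22, 7.10, 7.10 and 7.25 in wild-type replicates 1 to 5. The lowest Tg(Dyrk1a) mice, replicates 2 and 4, were 0.16 above the highest wild-type mouse. The means were 7.51 ± 0.11 in Tg(Dyrk1a) mice and 7.16 ± 0.07 in wild-type mice (SD, n = 5 each), a log2 difference of 0.35 ± 0.05, or 1.27-fold. Of all genes, 12 had a log2 fold change at least as high, Krt73 included.

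Sncg encodes gamma-synuclein, a small protein of axon terminals that marks a class of cholecystokinin interneurons in mouse cortex (chr14, 34370274 to 34374669). It read 8.02, 8.19, 8.06, 8.22 and 8.16 in Tg(Dyrk1a) replicates 1 to 5, against 7.78, 8.0, 8.09, 7.93 and 8.0 in wild-type replicates 1 to 5. Wild-type replicate 3 was the only wild-type array within the Tg(Dyrk1a) range. The log2 fold change was 0.17 ± 0.06 (limma adjusted p = 0.947).

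Adarb2 encodes a relative of the RNA editing enzymes that has no known editing activity and marks interneurons of caudal origin (chr13, 8202526 to 8768762). It read 7.42, 7.76, 7.50, 7.61 and 7.63 in Tg(Dyrk1a) replicates 1 to 5, against 7.48, 7.34, 7.47, 7.49 and 7.58 in wild-type replicates 1 to 5. The lowest Tg(Dyrk1a) mouse lay below 4 of the 5 wild-type mice. The log2 fold change was 0.11 ± 0.06 (limma adjusted p = 0.947). It was 0.07 without Tg(Dyrk1a) replicate 2, 0.07 without the choroid-high arrays and 0.04 in the fit with marker scores as covariates.

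Some of these values differed without single arrays. Without the 3 choroid-high arrays, which leaves 7, 5 genes had separate groups (Krt73, Slc17a8, Cnr1, Vip and Htr3a), where 3.81% of all clusters were separate in that direction. That cut removed the Tg(Dyrk1a) mice lowest in Cnr1 and Vip and the wild-type mouse highest in Htr3a. In that fit the limma adjusted p of Cnr1, Vip and Htr3a was 0.878. Without wild-type replicate 3 there were 3 such genes, with Sncg added (0.743% of all clusters). Without wild-type replicate 5 there were also 3, with Htr3a added (1.23% of all clusters). These counts were not planned, and Krt73 and Slc17a8 were proposed with their genotype difference known, so nothing is read from them. In several other lists most genes were also higher in Tg(Dyrk1a) mice, where 51.7% of all genes were. The list scores were not tested against genotype. The vessel score was 0.02 to 0.08 in Tg(Dyrk1a) mice and -0.16 to 0.02 in wild-type mice, with 10 of 12 genes higher in Tg(Dyrk1a) mice. The meninges and fibroblast score was -0.10 to 0.24 in Tg(Dyrk1a) mice and -0.21 to 0.07 in wild-type mice, with 15 of 16 genes higher in Tg(Dyrk1a) mice. The dentate granule cell score was -0.07 to 0.19 in Tg(Dyrk1a) mice and -0.17 to 0.03 in wild-type mice, with 12 of 12 genes higher. The median log2 fold changes were 0.06 (vessel), 0.25 (meninges and fibroblast) and 0.11 (dentate granule cell), beside 0.13 for the caudal-eminence set. Of the pyramidal cell genes 11 of 12 were higher (median 0.04), and of the thalamus and habenula genes 10 of 11 were lower (median -0.12). The covariate fit held the choroid plexus, meninges and thalamus scores only, and the part of the vessel and dentate scores in the values of the interneuron genes was not tested.

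Other genes of the same cells were then compared, in lists that were also chosen with earlier results of these data known. Of 20 further genes of caudal-eminence interneurons, 14 were higher and 6 lower in Tg(Dyrk1a) mice, with a median log2 fold change of 0.04 (range -0.14 to 0.25). None passed the adjusted limma test, and 51.7% of all genes were higher. Prox1 (log2 fold change 0.12) is also in the dentate granule cell list, and Calb2 (-0.14) is also in the thalamus and habenula list. The count and the score of this list are therefore not of caudal-eminence interneurons alone. The lowest p belonged to Sema3c, a secreted guidance factor, whose log2 values were 8.22, 8.20, 8.19, 8.09 and 8.22 in Tg(Dyrk1a) replicates 1 to 5 and 7.91, 7.97, 7.85, 7.91 and 8.01 in wild-type replicates 1 to 5. The Sema3c groups did not overlap, with a log2 fold change of 0.25 ± 0.04 (limma adjusted p = 0.131). Tac2, a tachykinin peptide gene that the thalamus and habenula list also holds, had a log2 fold change of 0.18 ± 0.05, and Kctd12, an auxiliary subunit of the GABA-B receptor, had 0.10 ± 0.04.

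Genes that mark GABAergic neurons of any origin were measured for 9 of 12 listed genes. Of these, 8 were higher and 1 lower in Tg(Dyrk1a) mice, with a median log2 fold change of 0.03, and none passed the adjusted test. Gad2, which encodes a GABA-synthesising enzyme, read 10.23, 10.12, 10.28, 10.22 and 10.18 in Tg(Dyrk1a) replicates 1 to 5, against 10.17, 10.02, 9.99, 10.03 and 10.14 in wild-type replicates 1 to 5. The groups overlapped only through Tg(Dyrk1a) replicate 2 and wild-type replicates 1 and 5, and the log2 fold change was 0.14 ± 0.04. Dlx1as, antisense to a homeobox gene of the eminences, had 0.16 ± 0.04, and Dlx5, another homeobox gene, had 0.10 ± 0.06. These 3 genes had the smallest limma p of the list. Gad1, the other gene for a GABA-synthesising enzyme, had 0.03 ± 0.04, and the homeobox genes Dlx1 and Dlx6 had 0.01 and -0.03.

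Of 13 genes of medial-eminence interneurons, 9 were higher and 4 lower in Tg(Dyrk1a) mice, with a median log2 fold change of 0.03. Among them Tac1, the substance P gene, had a log2 fold change of 0.27 ± 0.10, the neuropeptide Y gene Npy 0.18 ± 0.06 and the neurexophilin gene Nxph1 0.12 ± 0.05. These 3 had the smallest limma p of the list, whose log2 fold changes ranged from -0.06 to 0.27. The parvalbumin gene Pvalb had -0.06 ± 0.05 and the somatostatin gene Sst 0.08 ± 0.07. Of 7 genes of Cajal-Retzius cells, 1 was higher and 6 were lower, with a median of -0.02 (range -0.04 to 0.05). The log2 fold changes of Trp73, Nhlh2 and Lhx1, which encode transcription factors of these cells, were 0.05, -0.04 and -0.02. No gene of either list passed the adjusted test.

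**Figure D2:**
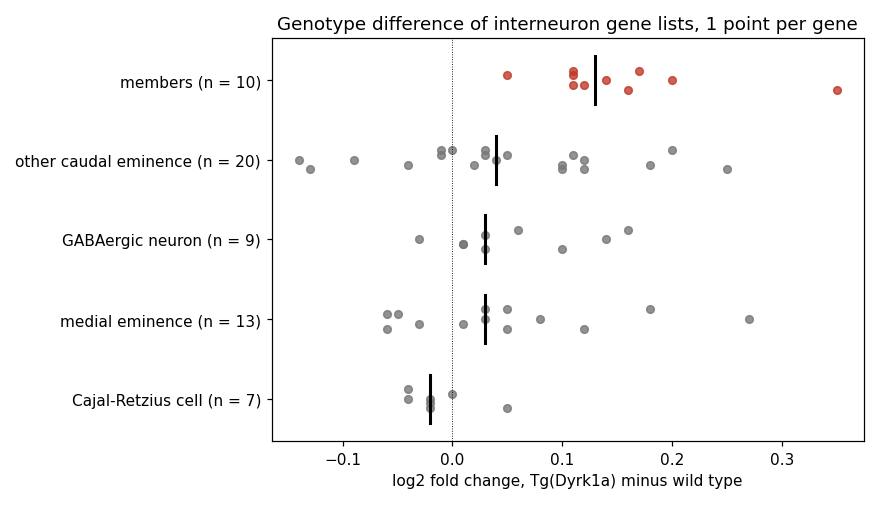
Log2 fold change on the horizontal axis, positive where Tg(Dyrk1a) mice were higher, of each measured gene in 5 interneuron and Cajal-Retzius lists (rows), 1 point per gene, with the list median as a vertical bar. The medians are 0.13 for the 10 members, 0.04 for other caudal-eminence genes, 0.03 for GABAergic and medial-eminence genes and -0.02 for Cajal-Retzius cell genes. Lists of other cell types are not drawn, such as meninges and fibroblast genes (median 0.25) and dentate granule cell genes (median 0.11). The members were proposed with genotype results in view, and the lists were chosen with earlier results of these data known.

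The second comparison asked whether the 10 genes vary together from mouse to mouse. Each value was taken as its deviation from the mean of its own genotype, so that the genotype difference does not enter. Of the 45 pairs, 25 had a positive and 20 a negative Pearson correlation over the 10 mice. The median r was 0.12, and it was 0.017 over all 199325 pairs of a member with any gene. The sizes of r had a median of 0.37 among the 45 pairs and 0.29 among all these pairs. At an exact permutation p under 0.05, 4 pairs were positively correlated (8.89%), where 3.8% of all member and gene pairs were, and 2 were negatively correlated (4.44%), where 3.56% of all were. None of the 45 passed adjustment over all 199325 pairs, whose smallest adjusted p among the members was 0.604. None of the 6 pairs stayed under 0.05 once the 2 arrays farthest from the median of the first gene were left out.

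**Figure D3:**
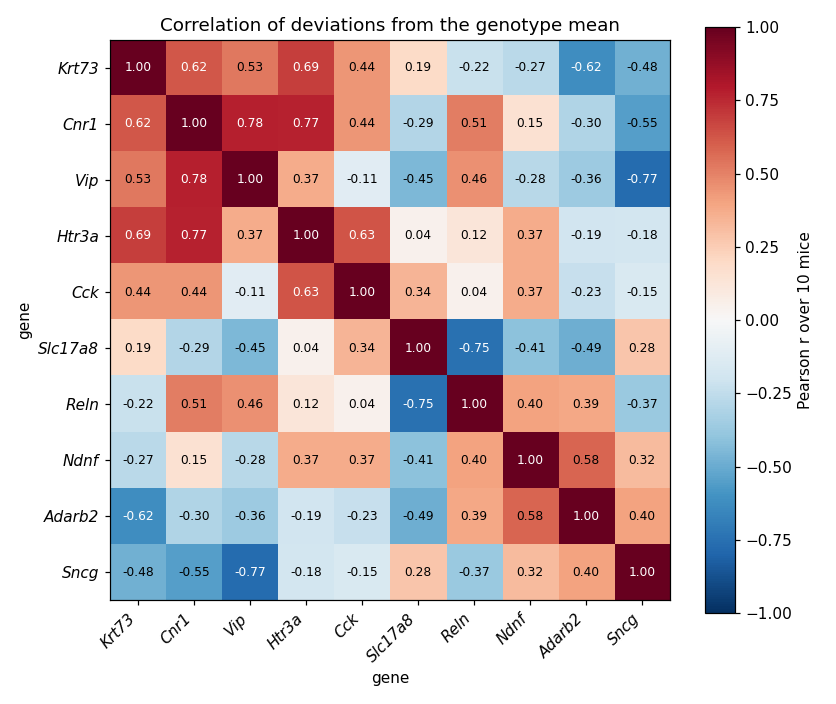
Pearson r (colour and number in each cell) of the deviations from the genotype mean over 10 mice, for each pair of the 10 genes on both axes. The red corner joins Krt73, Cnr1, Vip and Htr3a (0.37 to 0.78), while Sncg and Adarb2 are negative with each of those 4.

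The 4 positive pairs joined Cnr1, Vip, Htr3a and Krt73. Cnr1 and Vip had r = 0.78 (exact permutation p = 0.0144, adjusted p = 0.604) and rho = 0.49 (exact permutation p = 0.174). Wild-type replicate 3 and Tg(Dyrk1a) replicates 2 and 4 were below their genotype means for both genes. Without the 2 arrays farthest in Cnr1, r was 0.70 (exact permutation p = 0.188), and it was 0.69 without the choroid-high arrays (exact permutation p = 0.278).

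Cnr1 and Htr3a had r = 0.77 (exact permutation p = 0.0225, adjusted p = 0.627) and rho = 0.85 (exact permutation p = 0.00562). Without the arrays high in choroid plexus genes r was 0.79 (exact permutation p = 0.00694, the smallest that 7 arrays allow), and without the 2 arrays farthest in Cnr1 it was 0.49 (exact permutation p = 0.168). This was the only 1 of the 6 pairs that stayed under 0.05 without the choroid-high arrays.

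Krt73 correlated with Htr3a at r = 0.69 (exact permutation p = 0.0244, adjusted p = 0.632) and rho = 0.67 (exact permutation p = 0.0375). Its r with Cnr1 was 0.62 (exact permutation p = 0.0483, adjusted p = 0.675), with rho = 0.67 (exact permutation p = 0.0443). Without the 2 arrays farthest in the first gene these r were 0.71 (exact permutation p = 0.0819) and 0.57 (exact permutation p = 0.194). Without the choroid-high arrays they were 0.66 (exact permutation p = 0.174) and 0.29 (exact permutation p = 0.486).

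The 2 negative pairs were Slc17a8 with Reln and Sncg with Vip. Slc17a8 and Reln had r = -0.75 (exact permutation p = 0.0356, adjusted p = 0.658) and rho = -0.79 (exact permutation p = 0.00993). Without the 2 arrays farthest in Slc17a8, r was -0.60 (exact permutation p = 0.2), and without the choroid-high arrays it was -0.78 (exact permutation p = 0.0903). Sncg and Vip had r = -0.77 (exact permutation p = 0.0183, adjusted p = 0.614) and rho = -0.88 (exact permutation p = 0.00556). For these, r was -0.70 (exact permutation p = 0.0747) without the 2 arrays farthest in Sncg and -0.79 (exact permutation p = 0.139) without the choroid-high arrays. In Tg(Dyrk1a) replicates 2 and 4, the arrays high in choroid plexus genes, Sncg was above its Tg(Dyrk1a) mean of 8.13, at 8.19 and 8.22. Vip was below its Tg(Dyrk1a) mean of 7.97 there, at 7.66 and 7.83.

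**Figure D4:**
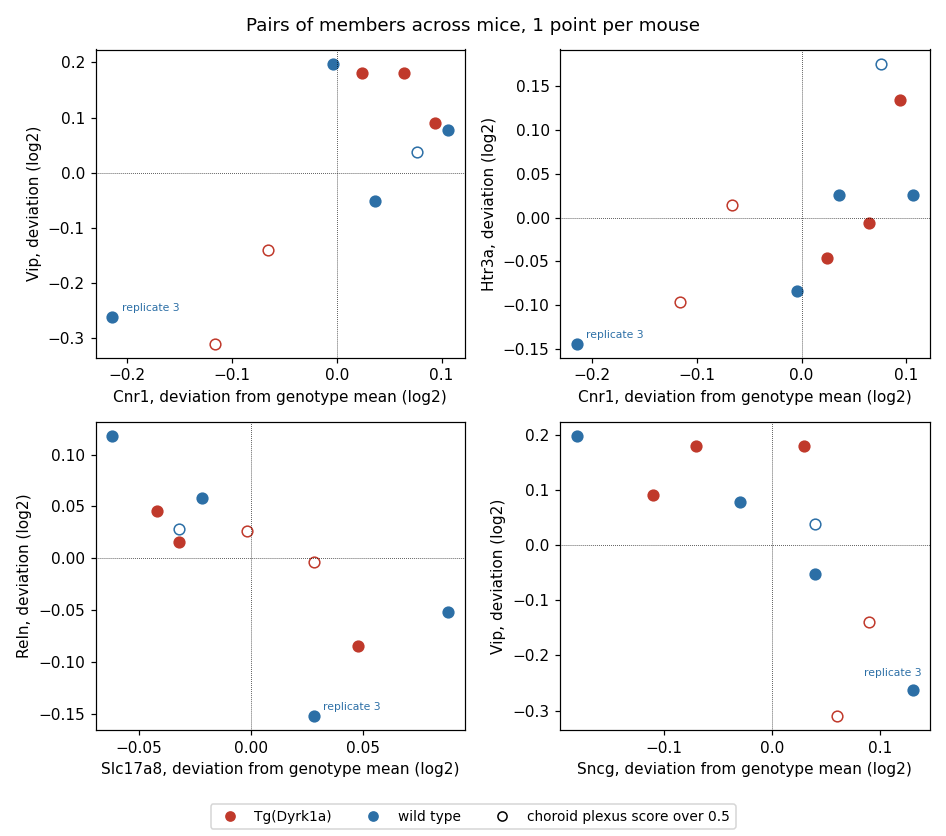
Deviation from the genotype mean (log2) of 1 gene against another for 4 pairs, 1 point per mouse, with Tg(Dyrk1a) in red, wild type in blue and open points for the 3 choroid-high arrays. Wild-type replicate 3 is the leftmost point in the Cnr1 with Vip (r = 0.78) and Cnr1 with Htr3a (r = 0.77) panels and the rightmost in the Sncg with Vip panel (r = -0.77), and it has the lowest Reln deviation in the Slc17a8 with Reln panel (r = -0.75).

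Krt73 and Slc17a8, the 2 genes whose genotype groups were separate, had r = 0.19 over deviations from the genotype mean (exact permutation p = 0.567). The same pair had r = 0.87 when the genotype mean was left in. With the genotype mean left in, 43 of the 45 pairs were positive, with a median r of 0.49, and the 10 genotype differences, all in 1 direction, then enter each r.

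Each gene was also set against the score of 4 lists that hold none of the members, 40 relations in all. These were the interneuron and Cajal-Retzius lists, out of 14 lists that were scored. The other lists were not set against the genes, and the adjustment covers these 40 relations only. Cnr1 followed the score of the 20 other caudal-eminence genes with r = 0.92 (exact permutation p = 0.000833, adjusted p = 0.0333 over the 40) and rho = 0.85 (exact permutation p = 0.00701). Without the 2 arrays farthest in Cnr1, r was 0.97 (exact permutation p = 0.00694). Leaving out 1 array at a time gave 0.90 to 0.94, and without the choroid-high arrays r was 0.89 (exact permutation p = 0.104), which is no longer under 0.05. No other relation passed adjustment over the 40.

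The next were those of Vip with the medial-eminence score (r = 0.88, exact permutation p = 0.00361, adjusted p = 0.0722) and of Slc17a8 with the Cajal-Retzius score (r = 0.82, exact permutation p = 0.00549, adjusted p = 0.0731). Sncg ran against the medial-eminence score (r = -0.80, exact permutation p = 0.0103, adjusted p = 0.0822) and Cnr1 ran with it (r = 0.78, exact permutation p = 0.00965, adjusted p = 0.0822). Vip had r = 0.77 with the other caudal-eminence genes (exact permutation p = 0.0167, adjusted p = 0.111). Without the 2 arrays farthest in the member, the first relations were 0.89 for Vip (exact permutation p = 0.0503) and 0.72 for Slc17a8 (exact permutation p = 0.0583). With the medial-eminence score Sncg then had -0.86 (exact permutation p = 0.0139) and Cnr1 0.66 (exact permutation p = 0.167). Vip with the other caudal-eminence genes had 0.64 (exact permutation p = 0.189).

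The genes whose deviations were most like those of Krt73 over the 10 mice, among genes with a mean above the median, were Bcat1 (r = 0.93), Gas2 (0.91), Ostf1 (0.91), Clptm1 (0.90) and Gfra1 (0.88). For Slc17a8 they were Klf3 (r = 0.91), Cdk2ap2 (0.90), Ccdc130 (0.89), Mllt3 (0.88) and Degs2 (0.88). None of the caudal-eminence genes was among these, and the r are the highest of 9746 candidates for Krt73 and 9747 for Slc17a8, over arrays that share their normalization.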

How the data were processed

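The authors deposited log2 values per transcript cluster after robust multi-array average (RMA) processing of Affymetrix mouse gene arrays, hybridised with labelled cDNA from 5 Tg(Dyrk1a) and 5 wild-type mice. The submitters' processing notes name RMA, limma and mm10. RMA compresses fold changes, above all of dim transcripts, and the number of arrays limits the precision. The table held 35556 rows, of which 23410 had a gene in the platform annotation (21789 with 1 symbol, 1621 with several). The genotype contrast was fitted on these 23410 rows (limma 3.58.1, R 4.3.3) with Benjamini-Hochberg adjustment and no covariate. Each of 19938 genes was represented by its row with the highest mean.

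Correlations used deviations from the genotype mean, with two-sided exact permutation over all 14400 rearrangements within genotypes (smallest p 6.94e-05), adjusted over 199325 member and gene pairs. Scripts were tested on simulated data. The members and lists were chosen with earlier results of these data known. Named besides the members were the 3 genes of each interneuron and Cajal-Retzius list with the smallest limma p, the 5 genes most like Krt73 and Slc17a8, Dyrk1a and Ttr. Of 172 list genes, 165 were measured. Alternatives were quantile normalization, median centring, a dim filter, all rows, a trended robust variance, array weights, a replicate block, covariates, leaving out arrays and FCROS, a ranking of fold changes over all pairs of arrays that the study used, rewritten here with 25% of ranks trimmed at each end. Replicate numbers are shared by both genotypes in the labels but did not pair the mice. Same-numbered arrays had correlations of deviations of -0.29 to 0.28, with 1 of 5 over 0.1, and other pairs had -0.45 to 0.40.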

Additional observations from a re-analysis of the deposited data

How the results depend on the processing

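The 10 fold changes were refitted 210 times, 21 for each gene, and 200 kept their direction and side of the threshold. Of the rest, 9 lay past a threshold, namely 8 genes under FCROS (all but Cck and Adarb2, where FCROS called 2.72% of clusters higher) and Krt73 with array weights. For Krt73, Slc17a8 and Reln, proposed from these same differences, this is a description and no test. Only Reln reversed, at -0.02 with marker scores as covariates. Over all clusters limma called 2 (Dyrk1a and 1 lower), and also 2 after quantile normalization or without the dimmest 30%. It called 1 after median centring, with all rows, with trended robust variance, with the replicate block or without the choroid-high arrays, 5 with array weights, 0 with covariates and 1 to 2 with 1 array left out, while FCROS called 1131. FCROS cuts tails of 0.025 from a ranking standardised over all clusters, so its share of calls is set largely by the cut. It gives no error over mice, and its calls are unlike those of limma. At an unadjusted p under 0.05 limma called 1154. Genes with separate groups numbered 5 without the choroid-high arrays and 2 to 3 with 1 array left out. Pairs with p under 0.05 numbered 6, against 11 when pooled over genotypes, 12 after marker residuals, 4 without the choroid-high arrays, 4 with the replicate block (2 of them among the 6), 2 without the 2 farthest arrays and 1 to 5 with 1 array left out, the 1 being without wild-type replicate 3. The r of Slc17a8 and Reln reversed to 0.34 when pooled and was -0.37 after median centring. Each gene had 1 transcript cluster, so averaging clusters changed nothing. The values hold no detection call, so dim signals could not be told from background.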

Other observations

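In 20 groups of 5 values, 1 for each gene in each genotype, no single mouse stood apart by Dixon's criterion. Within the Tg(Dyrk1a) mice, some genes differed between the choroid-high replicates and the others. In replicates 2 and 4, Krt73 was 7.41 in both, against 7.49 to 7.67 in the other 3 Tg(Dyrk1a) mice, and Cnr1 was 9.02 and 9.07, against 9.16 to 9.23. Ndnf ran the other way, at 8.38 to 8.40 in those mice and 8.26 to 8.32 in the other 3, as did Sncg, at 8.19 to 8.22 and 8.02 to 8.16. The choroid-high wild-type mouse, replicate 5, did not share the lower Krt73 and Cnr1 values: Krt73 was 7.25 there, against a mean of 7.14 in the other wild-type mice, and Cnr1 was 9.09, against 8.99. It did share the higher Ndnf and Sncg values, at 8.32 against 8.2 for Ndnf and 8.0 against 7.95 for Sncg. These mice were compared by a technical score after their values were seen, with no test, and whether the amount of attached tissue bears on the interneuron genes was not tested.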
